A study of Mus musculus with 21 samples.

Results

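The sequences described here are the 256 self-complementary sequences of 8 bases (palindromic 8-mers), out of 65535 8-mers with a deposited binding score. They were chosen by sequence alone: each name in the deposited matrix was complemented base by base, and an 8-mer was kept if it equalled its own reverse complement. The first 4 bases of such an 8-mer fix the last 4, so every member has one of the self-complementary central dinucleotides CG, GC, AT or TA, with 64 members each, and one of 64 possible last 3 bases, with 4 members each. A palindrome reads the same on both strands, so its identity does not depend on which strand of the array carried the modified cytosine.

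The study measured how mouse bZIP DNA-binding domains bind DNA whose cytosine is modified, with protein binding microarrays of 40330 probes and 35 variable bases per probe. The proteins were CREB1, CEBPB and the single-residue mutants CREB1(A297V) and CEBPB(V285A), all as GST fusions of the DNA-binding domain made by coupled transcription and translation in a tube, without cells. One strand of every probe was copied from nucleotides with plain cytosine (C), with 5-methylcytosine (5mC) in its place, or with 5-hydroxymethylcytosine (5hmC). Modified arrays therefore carried the modified base on the copied strand and plain cytosine on the printed strand. The 21 arrays form 10 groups: CREB1, CEBPB(V285A) and CREB1(A297V) each on C, 5mC and 5hmC, and CEBPB on 5hmC. Each group has 2 arrays, except CREB1 on 5mC with 1 and CREB1(A297V) on 5hmC with 4. CEBPB on C and on 5mC was not analysed here.

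bZIP proteins bind DNA as dimers. The basic region of each partner lies in the major groove over one arm of the site, so the preferred sites of a dimer of identical partners are often palindromes. The cAMP response element (CRE) is the classical site of CREB1, the C/EBP site that of CEBPB, and the PAR site that of the related PAR-domain bZIP factors. CACGTG, the E-box, is best known as a site of basic helix-loop-helix proteins such as MYC and also has a CG centre between complementary arms. By their names, the mutants exchange alanine for valine in CREB1 and valine for alanine in CEBPB.

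The sequences below carry the results. Each is written from 5′ to 3′, with the central dinucleotide in capitals. The first set holds the arms of the 3 classical bZIP palindromes and exchanges only the centre.
CRE arms, CG centre: tgaCGtca
CRE arms, GC centre: tgaGCtca
CRE arms, AT centre: tgaATtca
CRE arms, TA centre: tgaTAtca
PAR arms, CG centre: ttaCGtaa
PAR arms, GC centre: ttaGCtaa
PAR arms, AT centre: ttaATtaa
PAR arms, TA centre: ttaTAtaa
C/EBP arms, CG centre: ttgCGcaa
C/EBP arms, GC centre: ttgGCcaa
C/EBP arms, AT centre: ttgATcaa
C/EBP arms, TA centre: ttgTAcaa

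The second set holds the 4 palindromes around the E-box and the other members whose Z-scores were highest or changed most. They are named below by their sequence.
E-box with outer A and T: acaCGtgt
E-box with outer C and G: ccaCGtgg
E-box with outer G and C: gcaCGtgc
E-box with outer T and A: tcaCGtga
CG centre, ending TAG: ctaCGtag
CG centre, ending TAT: ataCGtat
CG centre, ending CAG: ctgCGcag
CG centre, ending ACA: tgtCGaca
CG centre, ending AAA: tttCGaaa
GC centre, ending AAC: gttGCaac
GC centre, ending AAT: attGCaat
GC centre, ending GTA: tacGCgta
AT centre, ending GAC: gtcATgac
AT centre, ending TAC: gtaATtac
AT centre, ending ACG: cgtATacg
AT centre, ending TGC: gcaATtgc
AT centre, ending AAC: gttATaac
TA centre, ending CGT: acgTAcgt

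The value of an 8-mer is the Z-score deposited by the authors, a relative preference within one array that has no scale in common between arrays. The highest Z-score of an array ranged from 15.7 to 256. Each member was carried by 15 to 20 probes (median 17, as for the other 8-mers), and 195 of the 4209 probes that carried a member (4.63%) carried more than 1. Replicate arrays correlated at r = 0.698 to 0.995 across the members and at r = 0.335 to 0.968 across all 8-mers, as a description. Rose, fell, higher and lower are used below for differences with an adjusted p under 0.05 in limma, fitted to all 21 arrays and adjusted by the Benjamini-Hochberg method over 65106 8-mers; mean ± SD is given over the arrays of a group. The labels do not say whether replicate arrays used separately made protein, so these p-values measure only the spread between arrays, and the small number of arrays limits their precision. CREB1 on 5mC has 1 array, which its p-values do not test. Every member called between groups had arrays that did not overlap. The lack of overlap stated below for called members is therefore a description and no support beyond the call. Giving all arrays one distribution of Z-scores (quantile scaling) moved 49 of 137 differences printed for named members by over 1.5 times, 40 of them to smaller values. Of the 137, 102 remained called.

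On C, the highest member for CREB1 was tgaCGtca, at 195 ± 24.9 (n = 2), and for both mutants ttaCGtaa, at 241 ± 13.2 for CEBPB(V285A) and 55.1 ± 10.8 for CREB1(A297V) (n = 2 each). Each of these ranked 1 among all 8-mers of its group. Exchanging the centre between the same arms gave far lower Z-scores. Between the CRE arms, CREB1 had mean Z-scores of -0.869 with GC, -0.108 with AT and 1.73 with TA. Between the PAR arms, CREB1 went from 34.0 with CG to between -0.0411 and 0.0700 with the other centres. Between the C/EBP arms, CEBPB(V285A) had 65.5 with CG, and -0.277, 1.26 and 0.725 with GC, AT and TA.

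2 members with another centre between the PAR arms were higher in a mutant than in CREB1. The first was ttaTAtaa, which contains only A and T. Its Z-scores on C were 18.1 and 11.9 for CEBPB(V285A), 1.43 and 1.66 for CREB1(A297V), and 0.0545 and 0.0138 for CREB1. The CEBPB(V285A) arrays lay above all the others. The difference between CEBPB(V285A) and CREB1 was 15.0 (SE 3.04, adjusted p 0.00809), but it was 7.75 (adjusted p 0.427) after quantile scaling and not called with the array run as a random block (adjusted p 0.180). It was also not called without replicate 1 or 2 of CREB1 on C (adjusted p 0.123 and 0.0731) or replicate 1 of CEBPB(V285A) on C (11.9, adjusted p 0.275). The second was ttaGCtaa, with 4.22 and 6.04 for CREB1(A297V), 2.88 and 2.83 for CEBPB(V285A), and 0.368 and -0.450 for CREB1. All mutant arrays lay above both CREB1 arrays. CREB1(A297V) was higher than CREB1 by 5.17 (SE 0.854, adjusted p 0.000761), and also within the run that held both (adjusted p 0.00360).

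A mean Z-score above 5, taken here as high, was reached on C by 9 members for CREB1, 15 for CEBPB(V285A) and 5 for CREB1(A297V). These are 3.52%, 5.86% and 1.95% of the members, beside 1.10%, 2.21% and 0.332% of all 8-mers. CG members made up 5 of the 9, 9 of the 15 and 3 of the 5. Among all 8-mers with CG at those 2 central positions, 3.58%, 5.15% and 0.638% were above 5 in the same groups, against 7.81%, 14.1% and 4.69% of the CG members. Within the 64 sets of 4 members that share their last 3 bases, CG was the highest centre in 24 sets for CREB1, 20 for CEBPB(V285A) and 16 for CREB1(A297V) on C. An even split over the 4 centres would be 16 sets each. AT was highest in 18, 19 and 20 sets of the same groups, GC in 12, 12 and 9, and TA in 10, 13 and 19. The median member of each group stood at 0.281, 0.305 and 0.204.

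The next base on each side of the centre also went with the level for CREB1 and CEBPB(V285A). Of the 16 self-complementary central tetramers, ACGT had the highest median Z-score over its 16 members, at 3.03 for CREB1 and 3.34 for CEBPB(V285A) on C. For CREB1(A297V) the median of the same 16 members was 0.550, below those of TATA (0.981), TTAA (0.857) and ATAT (0.773). The 5 CG members above 5 for CREB1, and 7 of the 9 for CEBPB(V285A), had this ACGT centre.

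After the CRE and PAR palindromes, the highest members for CREB1 on C were ctaCGtag, acgTAcgt, gtcATgac and ataCGtat. ctaCGtag stood at 13.3 and 17.4 on the CREB1 arrays, 32.5 and 16.8 on the CEBPB(V285A) arrays and -0.120 and 0.0305 on the CREB1(A297V) arrays. CREB1 and CEBPB(V285A) overlapped, and CREB1(A297V) was at the middle of its own distribution. acgTAcgt, which holds ACGT at each end instead of in the middle, stood at 7.34 and 12.7 for CREB1, 19.3 and 12.2 for CEBPB(V285A), and 1.25 and 0.966 for CREB1(A297V). gtcATgac holds the CRE arms in exchanged order, with GTCA first and TGAC after it, and has no CG. Its Z-scores were 10.2 and 9.46 for CREB1, 9.74 and 10.1 for CEBPB(V285A), and 2.52 and 2.76 for CREB1(A297V). The first pair of proteins overlapped, and the alanine-to-valine mutant lay below both.

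The E-box palindromes were bound above the median by CREB1 and CEBPB(V285A) on C. tcaCGtga was highest, at 5.79 and 5.45 for CREB1 and 7.99 and 7.63 for CEBPB(V285A), against 1.90 and 2.10 for CREB1(A297V). acaCGtgt stood at 4.31 ± 0.142 for CREB1 and 5.12 ± 0.493 for CEBPB(V285A), and ccaCGtgg at 3.14 ± 0.786 and 3.80 ± 0.0981. gcaCGtgc had 2.98 ± 1.22 and 2.87 ± 0.241. In CREB1(A297V), acaCGtgt, ccaCGtgg and gcaCGtgc were at -0.0119, 0.0274 and 0.498. All 4 were lower in CREB1(A297V) than in CREB1, with differences of -4.32, -3.11, -2.48 and -3.62 for outer bases A, C, G and T (adjusted p 0.00158, 0.00172, 0.0435 and 0.00685). ccaCGtgg was not called without replicate 2 of either protein (adjusted p 0.112 for CREB1 and 0.0634 for CREB1(A297V)), tcaCGtga not without any 1 of the 4 arrays compared (0.0535 to 0.0925), and gcaCGtgc was not called without any one of 11 arrays (adjusted p up to 0.967).

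CREB1(A297V) differed from CREB1 on C at 18 members, 2 higher and 16 lower (7.03%, beside 1.78% of all 8-mers, 0.115% higher and 1.67% lower). Of the 16 lower, 11 had a CG centre and 15 held CGT. Of the CG members 18.8% were called in either direction, beside 5.37% of all 4075 8-mers with that centre. Of those 4075, 3 were higher and 216 lower. A palindrome that holds CGT also holds ACG, its reverse complement. Of the 31 members with CGT, 48.4% were lower, beside 12% of the other 8-mers with CGT; the word was chosen after the values were seen. With the middle tetramer ACGT the shares were closer, at 9 of 16 members (56.2%) and 40.8% of 240 other 8-mers. Of the members with CGT, 12 were lower and 0 higher within the run that held both groups. The largest differences besides the CRE palindrome (-172, adjusted p 5.51e-08) were at ctaCGtag (-15.4, SE 2.75, adjusted p 0.00181), acgTAcgt (-8.90, SE 1.53, adjusted p 0.00120) and gtcATgac (-7.19, SE 1.13, adjusted p 0.000459). The difference at the CRE palindrome was -50.2 (adjusted p 0.193) after quantile scaling. Without replicate 2 of CREB1 on C, 9 members were called in place of 18, and ctaCGtag (-13.3, adjusted p 0.0896) and acgTAcgt (-6.23, adjusted p 0.115) were not among them.

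tgtCGaca and ttaGCtaa were the 2 members higher in CREB1(A297V) than in CREB1 on C. tgtCGaca shares the CG centre and the outer dinucleotides TG and CA with the CRE palindrome. It stood at 9.61 and 12.7 for CREB1(A297V), 2.76 and 4.09 for CREB1 and 2.35 and 1.66 for CEBPB(V285A). Both CREB1(A297V) arrays lay above every other array on C. The difference from CREB1 was 7.71 (SE 0.887, adjusted p 8.27e-06), remained called within the run (adjusted p 0.00236), and was 30.2 (adjusted p 8.91e-12) after quantile scaling. On an asinh scale, which compresses high Z-scores, it was not called (adjusted p 0.271).

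CEBPB(V285A) differed from CREB1 on C at 4 members, all higher (1.56%, beside 1.17% of all 8-mers, 1.12% higher and 0.0461% lower, a share near the background). They were ttaCGtaa, ttgCGcaa, ttaTAtaa and ataCGtat. ttaCGtaa and ttgCGcaa were higher by 207 and 63.5. The first was 98.3 after quantile scaling and was not called on background-corrected intensity (adjusted p 0.102), and the second was not called after quantile scaling (32.2, adjusted p 1.00) or without replicate 1 or 2 of CREB1 on C (0.115 and 0.0667). ataCGtat stood at 13.6 and 12.0 for CEBPB(V285A) and 8.08 and 9.48 for CREB1 (difference 4.04, SE 0.944, adjusted p 0.0280), a sign that turned after quantile scaling (-1.36). Its call was lost without replicate 1 of CREB1 on C (3.34, adjusted p 0.466) or of CEBPB(V285A) on C (3.23, adjusted p 0.494). The array runs, read from the run number in the file names, put the CEBPB(V285A) arrays on C in a run of their own, so run and protein cannot be told apart here, and with the run as a random block 1 of the 4 was called. 1 member was called when replicate 1 of CREB1 on C was left out, and 2 when replicate 1 of the mutant on C was.

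On 5mC, the members of CEBPB(V285A) moved in both directions: 10 rose and 18 fell against C (10.9% of members, beside 6.61% of all 8-mers, 3.06% higher and 3.55% lower). The arrays of this protein on C, 5mC and 5hmC lay in 3 different runs, so run and cytosine cannot be told apart in its comparisons. The CRE and PAR palindromes differed by -136 and -158, and the C/EBP palindrome ttgCGcaa rose by 142, from 65.5 ± 0.249 to 208 ± 10.7; its rise was 45.2 (adjusted p 0.160) after quantile scaling. The counts by sequence that follow include these 3 palindromes where they hold the word. Of the 31 members with CGT, 15 fell and 0 rose (48.4% lower, beside 20.1% of 5985 other 8-mers with CGT). Of the 31 members with GCA, 8 rose and 0 fell (25.8% higher, beside 19.3% of 6009 others). With the middle tetramer fixed, the shares of members were below those of the other 8-mers: 50% of members and 57.1% of 240 others fell with ACGT in the middle, and 18.8% and 30.4% rose with TGCA. Both words were chosen after the values were seen. Under the other scales and models, 10 to 17 members with CGT fell and none rose, and 5 to 9 members with GCA rose, with 1 that fell on the scale of background-corrected probe intensity.

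Among the members that rose with 5mC, gttGCaac stood at 2.62 and 1.97 on C and at 20.3 and 26.9 on 5mC for CEBPB(V285A). The arrays did not overlap, and the difference was 21.3 (SE 1.47, adjusted p 8.33e-11), or 8.64 (adjusted p 1.23e-05) after quantile scaling. attGCaat, with TGCA in the middle, stood at 0.458 and 0.441 on C and at 14.5 and 11.7 on 5mC (difference 12.7, SE 1.17, adjusted p 1.43e-08). gcaATtgc holds GCAAT and ATTGC, as attGCaat does, in exchanged order. It stood at 1.07 and 1.95 on C and at 13.1 and 14.0 on 5mC (difference 12.0, SE 0.873, adjusted p 2.10e-10). ctgCGcag was below the median on C, at -0.924 and -0.954, and stood at 8.51 and 7.44 on 5mC (difference 8.91, SE 0.639, adjusted p 1.61e-10). Each of these 4 stood below 3 on both C arrays and above 7 on both 5mC arrays. The others that rose were tgcGCgca, ttgTAcaa, tgcATgca, gcgATcgc and tttGCaaa, by 5.09, 3.30, 2.41, 2.21 and 2.18. Of these, ttgTAcaa was not called without replicate 2 on 5mC (adjusted p 0.152), nor tgcATgca without it or without either array on C (0.191, 0.0884 and 0.0684).

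After the CRE and PAR palindromes, the 3 members with the largest falls with 5mC in CEBPB(V285A) were ctaCGtag, acgTAcgt and ataCGtat. ctaCGtag went from 32.5 and 16.8 to 2.45 and 1.58 (difference -22.6, SE 2.75, adjusted p 1.47e-06), and acgTAcgt from 19.3 and 12.2 to 1.55 and 1.79 (difference -14.1, SE 1.53, adjusted p 2.30e-07). ataCGtat went from 13.6 and 12.0 to 2.86 and 0.859 (difference -11.0, SE 0.944, adjusted p 4.32e-09). None of these arrays overlapped. The E-box palindromes tcaCGtga, acaCGtgt and ccaCGtgg fell too, with differences of -6.21, -5.31 and -4.41, and the last 2 stood at -0.184 and -0.611 on 5mC. gcaCGtgc, which holds both GCA and CGT, was at 2.87 on C and 1.39 on 5mC and was not called. gtcATgac went from 9.91 ± 0.242 to 5.83 ± 1.12 and stayed above 5 (difference -4.08, adjusted p 0.0256). It was not called on the asinh scale (adjusted p 0.669), after quantile scaling (-1.76, adjusted p 0.685), with the run as a random block (0.249), or without either array on C or replicate 1 on 5mC (up to 0.254).

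ttaTAtaa has no cytosine in its 8 bases, though the bases around it in each probe can carry modified cytosine. It went from 18.1 and 11.9 on C to 4.02 and 5.26 on 5mC in CEBPB(V285A) (difference -10.4, SE 3.04, adjusted p 0.0383). The arrays did not overlap, but quantile scaling gave -4.38 (adjusted p 0.399) and a random block for the run gave an adjusted p of 0.332. The call was also lost without any one of 12 of the 21 arrays (adjusted p up to 0.503).

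For CREB1, 4 members fell on 5mC and 0 rose (1.56%, beside 1.01% of all 8-mers, 0.445% higher and 0.565% lower). They were the CRE palindrome (195 ± 24.9 to 22.4), acgTAcgt, ataCGtat and cgtATacg. Each holds CGT, a word chosen after the values were seen. The median difference was -0.817 over the 31 members with CGT and -0.380 over 5985 other 8-mers with CGT. With ACGT in the middle the medians were -1.56 for members and -1.83 for the others. cgtATacg went from 6.48 and 6.94 on C to 2.93 on the 1 array on 5mC (difference -3.78, SE 0.866, adjusted p 0.0267), and ataCGtat from 8.08 and 9.48 to 2.27 (difference -6.51, SE 1.16, adjusted p 0.00266). Within the run that held both groups, ataCGtat remained called (adjusted p 0.00727) and cgtATacg did not (adjusted p 0.0808). acgTAcgt (2.36 on the 5mC array, adjusted p 0.0459) was not called without any one of 16 arrays (adjusted p up to 0.582), nor cgtATacg without replicate 1 or 2 on C (0.0522 and 0.185). The split of calls moved with the scale: 2 rose and 3 fell after quantile scaling, 2 and 1 on the asinh scale, 5 and 5 on background-corrected intensity, and 4 and 4 within the run. gttGCaac and attGCaat, picked because they are high for CEBPB(V285A) on 5mC, stood above their level on C here too, without a call in the main fit. gttGCaac was at 1.28 and 1.63 on C and at 8.36 on the 5mC array, and attGCaat at 0.440 and 0.121 and at 4.63. The median difference was 0.460 over the 31 members with GCA and 0.474 over 6009 other 8-mers with GCA. Without replicate 2 of CREB1 on C, 2 members were called.

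CREB1(A297V) had 1 called member on 5mC, tgtCGaca, which fell (0.391%, beside 0.0476% of all 8-mers, 0.0338% higher and 0.0138% lower). It went from 9.61 and 12.7 on C to 3.35 and 1.79 on 5mC, with no overlap (difference -8.57, SE 0.887, adjusted p 6.91e-05; within the run adjusted p 0.0416). It was not called on the asinh scale (adjusted p 0.216), which left 0 members called, and at an unadjusted p under 0.05 in limma there were 19 members. The PAR palindrome ttaCGtaa stood at 55.1 ± 10.8 on C and 49.0 ± 4.11 on 5mC. The change with 5mC differed between the 2 mutants at 19 members. Here and below, differences of changes were tested on the deposited Z-scores only, which share no scale between arrays. They also depend on the level on C, since a protein with a low Z-score on C has little room to fall. The signed change in CEBPB(V285A) minus that in CREB1(A297V) was positive at 8 and negative at 11 (7.42%, beside 3.69% of all 8-mers, 1.64% and 2.05%). It was 20.6 at gttGCaac (adjusted p 1.91e-07), 13.0 at attGCaat and 10.6 at gcaATtgc, and -152 at ttaCGtaa, whose Z-score fell in CEBPB(V285A). In CREB1(A297V), gttGCaac stood at 1.87 and 1.37 on C and at 2.25 and 2.39 on 5mC.

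On 5hmC, 6 members rose and 33 fell in CEBPB(V285A) against C (15.2%, beside 7.22% of all 8-mers, 2.27% higher and 4.95% lower). CG was the centre of 18 of the 33 that fell and of 0 of the 6 that rose. Of the CG members 28.1% were called, beside 13.2% of all 4075 8-mers with that centre. Of those 4075, 22 rose and 516 fell. Of the 31 members with CGT, 22 fell and 0 rose (71%, beside 26.1% of the other 8-mers with CGT), and between 17 and 22 fell and none rose on the other scales and with the block models. With ACGT in the middle, 11 of 16 members fell (68.8%), as did 68.3% of 240 other 8-mers with that middle. Leaving out replicate 1 or 2 on C gave 18 and 22 called members in place of 39.

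The CRE and PAR palindromes had the largest falls with 5hmC in CEBPB(V285A), with differences of -146 and -123. After quantile scaling these were -67.8 and -43.8 (adjusted p 0.0193 and 0.00948). Several other members that were high on C stood at the middle of the distribution on 5hmC. ctaCGtag was at -0.154 and 0.107 on the 5hmC arrays of CEBPB(V285A), against 32.5 and 16.8 on C (difference -24.7, SE 2.75, adjusted p 6.54e-07). acgTAcgt was at 0.665 and 0.156, against 19.3 and 12.2 (difference -15.4, SE 1.53, adjusted p 1.17e-07). cgtATacg, with its CG dinucleotides outside an AT centre, went from 6.46 and 6.52 to 0.0771 and 0.214 (difference -6.34, SE 0.707, adjusted p 6.39e-07). tacGCgta, with a GC centre inside 2 CG steps, went from 7.89 and 7.49 to 0.482 and 0.814 (difference -7.04, SE 0.962, adjusted p 1.33e-05). In all 4 the arrays on C lay above those on 5hmC. All 4 E-box palindromes fell, with differences of -6.52 at tcaCGtga, -5.06 at ccaCGtgg, -5.01 at acaCGtgt and -3.62 at gcaCGtgc. gtcATgac, without a CG, fell from 9.74 and 10.1 to 2.85 and 4.10 (difference -6.44, SE 1.13, adjusted p 0.000372), which was -2.68 after quantile scaling (adjusted p 0.264).

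None of the 6 members that rose held CG, which is absent from 153 of the 256 members. ttaTAtaa stood at 42.5 and 25.1 on 5hmC, against 18.1 and 11.9 on C, so the arrays did not overlap (difference 18.8, SE 3.04, adjusted p 0.000129). gttATaac went from 2.17 and 3.16 to 6.94 and 7.91 (difference 4.76, SE 0.735, adjusted p 7.20e-05). gtgATcac, taaTAtta, aatTAatt and taaGCtta rose by 3.00, 2.48, 2.42 and 1.85. Of these, aatTAatt was not called without any 1 of the 4 arrays compared (adjusted p 0.0896 to 0.157), gtgATcac without replicate 1 on C (0.121) or 5hmC (0.0716), and taaTAtta without any one of 6 arrays (up to 0.412). On the asinh scale none of the 6 was called (adjusted p 0.226, 0.143 and 0.358 for ttaTAtaa, gttATaac and gtgATcac), and after quantile scaling only ttaTAtaa and gttATaac were. Among the 16 members without any cytosine, 3 rose and 0 fell with 5hmC (18.8% higher, beside 6.48% of 6544 other 8-mers without cytosine), and their median difference was 0.920, against 0.297 for those others. The 3 were ttaTAtaa, taaTAtta and aatTAatt, of which 1 was called after quantile scaling (adjusted p 0.129 and 0.142 for the last 2) and 0 on the asinh scale.

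The ttaTAtaa Z-score of CEBPB(V285A) on 5hmC also stood above those of the other proteins on 5hmC. CREB1 had 2.03 and 1.71, CEBPB 2.83 and 3.93, and CREB1(A297V) 3.51, 0.951, 1.80 and 3.89. None of these 8 arrays reached the lower CEBPB(V285A) array at 25.1. The differences from CREB1 and CEBPB were 31.9 (adjusted p 2.80e-07) and 30.4 (adjusted p 1.04e-06). gttATaac was also higher than in both, by 5.93 and 6.28. The change from C to 5hmC differed between CEBPB(V285A) and CREB1 at 15 members, with the signed change in CEBPB(V285A) minus that in CREB1 positive at 3 and negative at 12 (5.86%, beside 2.28% of all 8-mers, 0.369% and 1.91%). At ttaTAtaa it was 17.0 (adjusted p 0.0327). Between CEBPB(V285A) and CREB1(A297V) it differed at 18 members, positive at 3 and negative at 15 (7.03%, beside 2.43% of all 8-mers, 0.519% and 1.92%), with 17.8 at ttaTAtaa (adjusted p 0.0114). Here too the array run and the cytosine form cannot be told apart.

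CREB1 had 20 called members on 5hmC against C, 7 higher and 13 lower (7.81%, beside 10.1% of all 8-mers, 4.46% higher and 5.69% lower, below the background). The 7 that rose had AT, GC or TA centres, with 4, 2 and 1 members, and 7 of the 13 that fell had CG. Of the members with CG, GC, AT and TA centres, 10.9%, 7.81%, 7.81% and 4.69% were called. The shares of all 8-mers with these centres were 10.6%, 7.68%, 11.4% and 9.59%. Of the 4075 8-mers with CG, 83 rose and 350 fell. attGCaat rose most, from 0.440 and 0.121 to 8.37 and 8.65 (difference 8.23, SE 1.17, adjusted p 6.66e-05). tgcATgca went from 0.105 and -0.507 to 2.88 and 3.63 (difference 3.46, adjusted p 0.000568). Both had separate arrays. The largest fall was at tgaCGtca, from 195 on C to 28.8 on 5hmC (difference -166). It was -96.0 after quantile scaling (adjusted p 0.00103). acgTAcgt, ataCGtat and gacGCgtc fell, with differences of -6.36, -4.99 and -3.10, the first not called without replicate 2 on C (-3.69, adjusted p 0.226) or either array on 5hmC (0.103 and 0.0650), while ctaCGtag stood at 15.3 ± 2.90 on C and 8.77 ± 0.525 on 5hmC and was not called. The E-box palindrome acaCGtgt stood at 4.31 on C and 4.37 on 5hmC in CREB1, while in CEBPB(V285A) it fell by 5.01. The change in CEBPB(V285A) minus that in CREB1 was -5.08 (adjusted p 0.00888). On the asinh scale 11 members rose and 8 fell. Leaving out a CREB1 array on 5hmC left 5 calls, and leaving out replicate 1 or 2 on C left 10 or 7. The 2 groups lay in different runs, so an effect of the run and one of the cytosine cannot be told apart.

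CREB1(A297V) had 2 called members on 5hmC, both lower (0.781%, beside 0.287% of all 8-mers, 0.0906% higher and 0.197% lower). tgtCGaca went from 9.61 and 12.7 to -0.419, 1.23, 1.29 and 0.674 (difference -10.4, SE 0.768, adjusted p 7.57e-08), and within the run that held both C arrays and 2 of the 5hmC arrays the difference was -10.7 (adjusted p 0.00377). The second was ttaCGtaa, with 55.1 ± 10.8 on C and 21.7 ± 4.17 on 5hmC (n = 4; difference -33.4, adjusted p 0.0251), not called within the run (-36.3, adjusted p 0.296), nor without replicate 1 or 2 of CREB1(A297V) on C (-25.8 and -41.1, adjusted p 0.294 and 0.0780). Leaving out replicate 1 of CEBPB(V285A) on C or its replicate 2 on 5mC also ended that call (0.0548 and 0.0529), which left 1 member called. The change with 5hmC differed from that in CREB1 at 3 members, with the signed difference positive at 1 and negative at 2 (1.17%, beside 0.797% of all 8-mers, 0.25% and 0.547%), and it was -8.99 at tgtCGaca (adjusted p 7.47e-05). gtaATtac stood at 7.63 and 9.44 on C for this protein, at 7.54 and 8.92 on 5mC, and at 8.37, 11.6, 3.93 and 6.00 on 5hmC, with overlapping arrays. It was the only member other than ttaCGtaa with a mean above 5 for CREB1(A297V) on 5hmC. Without replicate 1 of CREB1(A297V) on 5hmC, 15 members were called.

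On 5hmC, CEBPB could be set against CREB1 within one run. They differed at 8 members, 2 higher and 6 lower in CEBPB (3.12%, beside 3.3% of all 8-mers, 0.908% higher and 2.39% lower, a share near the background). tttCGaaa stood at 6.53 and 13.0 for CEBPB and at 0.415 and 0.0991 for CREB1, without overlap (difference 9.53, SE 1.32, adjusted p 5.17e-05; within the run 0.00254). gaaATttc stood at 3.79 and 4.19 for CEBPB and 1.60 and 1.21 for CREB1 (difference 2.59, adjusted p 0.0245). Lower in CEBPB were gtcATgac by 5.08, acaCGtgt by 4.35 and cgtATacg by 4.00, with tgcATgca, ccaCGtgg and cacGCgtg by 2.50, 2.25 and 2.15. gaaATttc and ccaCGtgg were not called without any 1 of the 4 arrays compared (adjusted p up to 0.289 and 0.328), and acaCGtgt and cgtATacg not without replicate 2 of CEBPB (0.116 and 0.0787). gtcATgac and tgcATgca were lost without either CEBPB array or replicate 2 of CREB1 (up to 0.258 and 0.265), and cacGCgtg without any one of 14 arrays (up to 0.343). The quantile scale gave 8 higher and 8 lower, and on background-corrected intensity 29 were higher and 45 lower. Leaving out replicate 1 or 2 of CEBPB left 4 and 1 calls, leaving out replicate 1 or 2 of CREB1 left 5 and 3, and 15 members were called without replicate 1 of CREB1(A297V) on 5hmC.

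CEBPB(V285A) differed from its wild type CEBPB on 5hmC at 10 members, 6 higher and 4 lower (3.91%, beside 2.7% of all 8-mers, 2.02% higher and 0.685% lower). Lower in the mutant were tttCGaaa (1.68 and 0.0247 against 6.53 and 13.0, difference -8.94, SE 1.32, adjusted p 0.000169), gaaATttc, caaATttg and cacATgtg. Of these, gaaATttc and caaATttg hold AAATTT. The calls at gaaATttc, caaATttg and gtgATcac were lost without replicate 1 or 2 of CEBPB (adjusted p 0.0573 to 0.193), and those at cacATgtg and taaTAtta without any one of 13 arrays (up to 0.468 and 0.391). ataATtat was not called without replicate 2 of CEBPB (0.101) or replicate 1 of the mutant (0.0916), or with the run as a random block (0.127). ttaCGtaa was higher, at 118 ± 17.6 against 30.7 ± 10.2, but differed by 8.01 (adjusted p 0.789) after quantile scaling. Also higher, besides ttaTAtaa and gttATaac, were ataATtat by 4.54, gtgATcac by 3.45 and taaTAtta by 2.71. The split turned to 3 higher and 6 lower after quantile scaling and to 3 and 10 on background-corrected intensity, and leaving out replicate 2 or 1 of CEBPB gave 4 or 6 calls. The 2 groups lay in different runs, so run and mutation cannot be told apart.

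CEBPB(V285A) differed from CREB1 at 8 members on 5mC, 7 higher and 1 lower (3.12%, beside 2.03% of all 8-mers, 1.84% higher and 0.197% lower), and at 15 on 5hmC, 7 higher and 8 lower (5.86%, beside 4.07% of all 8-mers, 1.88% higher and 2.18% lower). On each form the 2 proteins lay in different runs. On 5mC the higher members were ttgCGcaa, ttaCGtaa, gttGCaac (by 15.2), gcaATtgc (10.1), attGCaat (8.50), ctgCGcag (6.80) and ttgTAcaa (3.77). After quantile scaling the 5mC calls were 1 higher and 2 lower, and gttGCaac differed by 0.560 (adjusted p 0.959). On 5hmC the lower members included the E-box palindromes acaCGtgt and ccaCGtgg, by 4.26 and 3.52, and attGCaat, which stood at 8.37 and 8.65 for CREB1 and 5.84 and 2.37 for CEBPB(V285A) (difference -4.41, adjusted p 0.0299; 0.152 and 0.214 without replicate 1 or 2 of CREB1, and 0.395 without replicate 2 of the mutant). Without either of the CREB1 arrays on 5hmC, 8 members were called, and without replicate 1 of CREB1(A297V) on 5hmC, 23.

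CREB1(A297V) differed from CREB1 at 2 members on 5mC, 1 in each direction (0.781%, beside 0.745% of all 8-mers, 0.187% higher and 0.558% lower, a share near the background). They were ttaCGtaa, higher by 37.8, and gacGCgtc, lower by 3.76. The call at ttaCGtaa was lost within the run (adjusted p 0.181) and without any one of 13 arrays (up to 0.182), and that at gacGCgtc without replicate 2 of CREB1(A297V) on 5mC (0.0857), so these counts ran from 0 to 4 as arrays were left out. On 5hmC it differed at 38 members, 5 higher and 33 lower (14.8%, beside 8.98% of all 8-mers, 2.56% higher and 6.42% lower). The lowest differences were at ctaCGtag (-8.41), attGCaat (-7.49, adjusted p 2.37e-05), gtcATgac (-6.56) and acaCGtgt (-4.76), and the higher members were tctTAaga, aagCGctt, tcgGCcga, ctcGCgag and cctCGagg, by 1.71 to 2.19. All 5 had negative mean Z-scores in CREB1 on 5hmC. The lower members were spread over all centres, with 10 CG, 9 GC, 8 AT and 6 TA. Of the members with these centres 18.8%, 17.2%, 12.5% and 10.9% were called in either direction. The shares of all 8-mers with these centres were 10.3%, 8.2%, 11.1% and 7.98%. The 2 groups share no run, and with the run as a random block 7 were called, all lower. Without replicate 1 or 2 of CREB1 on 5hmC 10 and 6 were called, and ctaCGtag and the 5 higher members were not (adjusted p 0.180 to 0.315).

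Each member was also set against the other 63 8-mers that share its last 5 bases, which hold the same centre and right arm but another left arm. The palindrome was not always the best of the 64. tgaCGtca ranked 1 for CREB1 on C, 5mC and 5hmC. gtcATgac ranked 1 for CREB1 on C (9.83, next atgATgac at 8.91), and ttaTAtaa ranked 1 for CEBPB(V285A) on C (15.0, next tgaTAtaa at 9.17) and on 5hmC (33.8, next tgaTAtaa at 21.3). Other high members stood behind an 8-mer that carries a CRE, PAR or C/EBP arm on the left. ctaCGtag, at 15.3 for CREB1 on C, ranked 3 behind tgaCGtag at 50.6. tgtCGaca, at 11.1 for CREB1(A297V) on C, ranked 2 behind ttaCGaca at 18.8. tttCGaaa, at 9.79 for CEBPB on 5hmC, ranked 2 behind ttgCGaaa at 21.3. Over all groups, between 1 and 10 of the 256 members ranked first among the 64. If the left arm made no difference, 1 in 64 members would rank first. These counts over all members lie on both sides of that share. Of the members with a mean above 5 on C, 5mC and 5hmC, 3 of 9, 4 of 7 and 1 of 8 ranked first for CREB1. For CEBPB(V285A) it was 2 of 15, 2 of 10 and 2 of 9, and for CREB1(A297V) 2 of 5, 3 of 3 and 2 of 2. For CEBPB on 5hmC it was 1 of 4. These members were picked by the Z-score that is ranked, which favours a high rank.

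The palindromes did not lead every group on modified DNA. On 5mC, tgaCGtca was the highest member for CREB1 at 22.4 and ranked 30 among all 8-mers, below the non-palindromic ctaCGcaa at 104. The highest member for CEBPB(V285A), ttgCGcaa, ranked 5, below ttaCGcaa at 253. On 5hmC, tgaCGtca ranked 35 for CREB1 and ttaCGtaa ranked 5 for CEBPB(V285A), where the non-palindromic tgaTGcaa (156) and ttaTGcaa (177) were highest. For CEBPB on 5hmC, ttgCGcaa (35.2) ranked 4, below the non-palindromic tccCCata at 59.6. For CREB1(A297V), ttaCGtaa ranked 1 on all 3 forms, on 5hmC at 21.7 with cccCCggc next at 18.3. In each group 2 to 4 of the 256 members were among the 100 highest 8-mers. This is above the share of the members among all 8-mers, which is 256 of 65106.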

How the data were processed

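Binding was measured on 21 protein binding microarrays in 10 groups. The authors deposited a score per array for each of 65535 8-mers, a Z-score whose calculation is not given in the sources used here, and files with the median intensity of each spot and its local background, per the file headers not background-subtracted. The 429 8-mers with a Z-score of 0 in all arrays were left out, which left 65106. Each 8-mer was tested on the deposited Z-scores with limma 3.58.1 in R 4.3.3, with 1 coefficient per group over all arrays, which left 11 residual degrees of freedom, a mean-variance trend, two-sided p-values and Benjamini-Hochberg adjustment. The fit uses 1 spread per 8-mer for all groups. The procedure was tested on simulated data with independent noise and no effect of the run, for CEBPB(V285A) on 5mC against C. It called 70 of 100 shifts of 3 in Z-score, 100 of 100 shifts of 10, and 12 8-mers without a shift. These simulated data cannot show how the run affects the comparisons.

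The members, lists and comparisons were chosen with earlier results of these data known. The named members are those with the last bases TCA, CAA and TAA, the 4 E-box palindromes, the 5 highest members per group, and up to 5 of the largest called rises and falls per comparison with arrays that do not overlap, 49 in all. The members gcgATcgc, taaGCtta, tgcGCgca and tttGCaaa, and the words CGT and GCA, were chosen after their values were seen. Alternatives were an asinh scale, quantile scaling between arrays, log2 of the median probe intensity after normexp background correction (offset 50), a replicate block, the array run as a random block, groups within one run, 8-mers with at least 8 probes, and leaving out each array.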

Additional observations from a re-analysis of the deposited data

Results flagged for a closer look

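In the group of 4 arrays, CREB1(A297V) on 5hmC, 3 of the 49 named members had an array far from the other 3: atgTAcat in replicate 1 (-0.864), cacGCgtg in replicate 1 (1.18) and tcgGCcga in replicate 2 (3.14). Chance sets apart about 1 in 20 groups.

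The change from C to 5mC differed between CEBPB(V285A) and CREB1(A297V) by a test of the difference in Z-score, made on the deposited scale only. A protein with a low Z-score on C has little room to fall, so the level on C enters these values. On C, tgaCGtca stood at 155 in CEBPB(V285A) and at 23.1 in CREB1(A297V). The difference given here and below is the change in the protein named first minus that in the second. With 5mC it was positive at ttgCGcaa (140), gttGCaac (20.6), attGCaat (13.0), gcaATtgc (10.6), ctgCGcag (8.29) and tgtCGaca (6.93). It was negative at ttaCGtaa (-152), tgaCGtca (-119), ctaCGtag (-25.2), acgTAcgt (-13.7) and ataCGtat (-11.0), and at acaCGtgt (-5.35), tcaCGtga (-5.16), ccaCGtgg (-4.27) and cgtATacg (-4.04).

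The change from C to 5hmC also differed between CEBPB(V285A) and CREB1(A297V), at 18 members (7.03%, beside 2.43% of all 8-mers). The difference was positive at ttaTAtaa (17.8), tgtCGaca (8.66) and gttATaac (4.92). It was negative at tgaCGtca (-123), ttaCGtaa (-89.9), ctaCGtag (-25.1), acgTAcgt (-14.3) and ataCGtat (-11.2), and at cgtATacg (-5.77), tcaCGtga (-5.15), tacGCgta (-5.15), ccaCGtgg (-4.74), acaCGtgt (-4.64), gacGCgtc (-3.52) and gcaCGtgc (-3.15).

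Between CEBPB(V285A) and CREB1 the change with 5hmC differed at 15 members (5.86%, beside 2.28% of all 8-mers). Of the named members it was positive at ttaTAtaa (17.0) and gttATaac (5.33). It was negative at ttaCGtaa (-112), ctaCGtag (-18.1), acgTAcgt (-9.00), ataCGtat (-7.26), acaCGtgt (-5.08), tcaCGtga (-4.61), ccaCGtgg (-4.18) and cacGCgtg (-3.37).

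Between CREB1(A297V) and CREB1 the change with 5hmC differed at 3 members (1.17%, beside 0.797% of all 8-mers): tgaCGtca (144), tgtCGaca (-8.99) and attGCaat (-7.85). On C, tgaCGtca stood at 23.1 in CREB1(A297V) and at 195 in CREB1, so the mutant had less room to fall.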

How the results depend on the processing

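Of 137 differences printed for named members, 84 stayed called on the asinh scale, 102 after quantile scaling, 111 on background-corrected log2 intensity, 90 with the run as a random block, 27 of 31 within a run, and 136 among 8-mers with at least 8 probes. The 1 sign that turned was ataCGtat for CEBPB(V285A) against CREB1 on C after quantile scaling (-1.36). With 2 arrays in most groups and array maxima far apart, differences between groups of low signal can be missed.

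The counts of called members moved by over 1.5 times as follows, and the cause was not tested. The share of all 8-mers called under each alternative is not given, here or above. Counts under the alternatives therefore do not show whether the members differ from other 8-mers. On background-corrected intensity they were 10 for CREB1 with 5mC, 87 for CREB1 with 5hmC, 10 and 31 for CREB1(A297V) with 5mC and 5hmC, 13 and 89 for CEBPB(V285A) against CREB1 on 5mC and 5hmC, 36 and 139 for CREB1(A297V) against CREB1 on 5mC and 5hmC, and 74 for CEBPB against CREB1. On the asinh scale they were 18 for CEBPB(V285A) with 5mC, 0 and 7 for CREB1(A297V) with 5mC and 5hmC, 3 for CEBPB(V285A) against CREB1 on 5mC, 9 and 1 for CREB1(A297V) against CREB1 on C and 5mC, and 6 for CEBPB(V285A) against CEBPB. After quantile scaling they were 16 and 23 for CEBPB(V285A) with 5mC and 5hmC, 5 for CREB1(A297V) with 5hmC, 1 and 3 for CEBPB(V285A) against CREB1 on C and 5mC, 6 for CREB1(A297V) against CREB1 on 5mC, and 16 for CEBPB against CREB1. With the run as a random block they were 5 for CREB1 and 22 for CEBPB(V285A) with 5hmC, 1 and 7 for CEBPB(V285A) against CREB1 on C and 5hmC, 4 and 7 for CREB1(A297V) against CREB1 on 5mC and 5hmC, 4 for CEBPB(V285A) against CEBPB, and 17 for CEBPB against CREB1. Within a run they were 8 for CREB1 with 5mC, 1 for CREB1(A297V) with 5hmC, 5 for CREB1(A297V) against CREB1 on 5mC, and 57 for CEBPB against CREB1.

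No common pairing by replicate number was seen: same-numbered arrays of 28 pairs of groups had deviations correlated from -0.381 to 0.190, with 4 above 0.1. Most of these pairs of groups lay in different runs, which limits this check. With the replicate block the counts were 32 for CREB1 with 5hmC, 28 for CEBPB(V285A) against CREB1 on 5hmC, 8 and 58 for CREB1(A297V) against CREB1 on 5mC and 5hmC, 19 for CEBPB(V285A) against CEBPB and 17 for CEBPB against CREB1, and 133 of the 137 differences stayed called.

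Leaving out each array in turn gave 2 to 5 called members for CREB1 with 5mC and 5 to 24 with 5hmC, 20 to 29 and 18 to 42 for CEBPB(V285A), and 1 to 1 and 1 to 15 for CREB1(A297V). It gave 1 to 6, 7 to 10 and 8 to 23 for CEBPB(V285A) against CREB1 on C, 5mC and 5hmC, 9 to 19, 0 to 4 and 6 to 45 for CREB1(A297V) against CREB1, 4 to 14 for CEBPB(V285A) against CEBPB, and 1 to 15 for CEBPB against CREB1. Without its only array, CREB1 on 5mC gave no value.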
